A study of Mus musculus with 8 samples.

Results

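Beside probes for named genes, the arrays carried probes whose only name was a stretch of the mouse genome and a strand, such as chr17:56687541-56694616_R, and which the array's own annotation described as lincRNA. Of 56605 non-control probes, 4449 had such a name (5 of them spotted 10 times each). They covered 3229 regions under 4061 names, since 832 regions carried probes for both the forward strand (F) and the reverse strand (R), and 316 names had more than 1 probe. A probe was kept when the scanner software marked it as well above background on at least 4 of the 8 arrays. This left 2341 probes (52.6%) in 1854 regions. The probes kept were thus chosen by these detection marks, and the shares kept are given as a description. The positions are in the mouse build mm9, which the file headers name.

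The arrays were made from the brown adipose tissue (BAT) of C57BL/6J mice, 12 weeks old, with 1 array per mouse. The methods give male mice and interscapular fat. Co mice (n = 4) received 100 μL of saline intravenously, and Pg mice (n = 4) received sonicated *P. gingivalis* in the same volume, at a dose that the labels print as 108 CFU, where the superscript was lost (10 to the power of 8 in the methods). Tissue was collected 18 h later, and the question was which transcripts differed in the BAT after the injection. The mice carried no transgene or deleted allele by the labels.

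Long intergenic noncoding RNAs (lincRNAs) are transcripts that lie between protein-coding genes and are not translated into a known protein. Many are spliced and polyadenylated like mRNAs, and they are often found in only a few tissues and at low levels. Some act on the chromatin around them, some bind proteins or other RNAs, and for most no role has been worked out. In brown fat, some lincRNAs are known to take part in brown adipocyte differentiation. A strand-specific probe reads only RNA of its own strand, so that probes for F and R at 1 place can tell transcripts of opposite direction apart.

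The sequences of the probes on which the results turned are shown here, 5′ to 3′, as the scanner files give them. Each is 60 bases long and was designed on the strand in its name. The first pair covers the same bases of chromosome 19 (61194416 to 61194475) on opposite strands, and the capitals mark the shared stretch, which is the whole probe.
chr19:61177675-61219875_F: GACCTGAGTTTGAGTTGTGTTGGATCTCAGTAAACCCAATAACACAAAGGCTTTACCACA
chr19:61177675-61219875_R: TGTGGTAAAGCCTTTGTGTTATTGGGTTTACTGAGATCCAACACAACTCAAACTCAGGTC
The next are probes that passed the test between Co and Pg mice. The pair on chromosome 17 reads both strands of 1 region, at 56690854 to 56690913 (R) and 56691053 to 56691112 (F). The others lie on chromosome 12 (32781622 to 32781681), chromosome 3 (10088561 to 10088620) and chromosome 11 (95573953 to 95574012). No part is in capitals.
chr17:56687541-56694616_R: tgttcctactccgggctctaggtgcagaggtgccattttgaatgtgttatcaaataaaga
chr17:56687541-56694616_F: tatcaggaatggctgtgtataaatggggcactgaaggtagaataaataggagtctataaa
chr12:32781477-32808567_R: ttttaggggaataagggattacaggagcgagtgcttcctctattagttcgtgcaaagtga
chr3:10081893-10094218_R: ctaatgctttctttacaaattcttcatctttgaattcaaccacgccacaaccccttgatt
chr11:95573399-95587949_F: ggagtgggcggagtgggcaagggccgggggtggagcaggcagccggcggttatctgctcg
The last are bright probes with part of their sequence in common with a promoter window or with another probe of the array. Capitals mark 58 bases identical to the opposite strand of the RefSeq promoter window (GRCm38.p6) of *Akap11*, a stretch with 41 of 46 bases identical to the array's probe for ENSMUST00000178807, and 36 bases identical to its probe for ENSMUST00000193210.
chr14:78924115-78938125_F: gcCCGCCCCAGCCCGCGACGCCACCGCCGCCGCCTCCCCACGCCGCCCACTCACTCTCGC
chr2:168804720-168854970_R: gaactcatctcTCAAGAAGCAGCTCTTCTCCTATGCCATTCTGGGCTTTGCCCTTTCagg
chr4:33364774-33364898_R: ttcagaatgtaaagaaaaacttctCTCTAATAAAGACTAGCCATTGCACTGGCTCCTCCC

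The label intergenic did not hold for every region. Of the 3229 regions, 721 (22.3%) held at least 1 of the array's 46598 gene-named probes that have an unbroken position. On their own strand, 579 of the 4449 probes had a gene-named probe inside their region, and for 78 it was a probe for a RefSeq mRNA. For 627 probes a gene-named probe lay inside on the opposite strand. The probes with none inside lay a median of 14955 bases from the nearest gene-named probe (interquartile range 5555 to 36051). The regions were 62 to 538251 bases long, with a median of 7207, and 91 of the probes had no single position in the files. In the account below, probes are therefore called position-named.

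The tissue label was checked against genes that mark cell types. Of 10 brown adipocyte genes, 8 were well above background on all 8 arrays, with mean log2 signals from 7.51 (*Prdm16*) to 17.8 (*Cox7a1*). *Ucp1*, which encodes the uncoupling protein that defines brown adipocytes, and *Elovl3*, a fatty acid elongase of brown fat, were well above background on no array (mean log2 signal of 2.16 and 2.64). All 6 general adipocyte genes and all 10 skeletal muscle genes were well above background on all 8 arrays. The muscle genes had mean log2 signals from 8.07 (*Myod1*) to 18.8 (*Tnnt3*), with *Acta1*, skeletal muscle actin, at 18.5. All 4 macrophage and all 3 neutrophil genes were detected on all 8 arrays, as were 2 of the 3 red cell genes, while *Hbb-bs* had no probe of that name. No gene of these lists that was tested had a q under 0.1 between the groups. Of the neutrophil genes, *S100a8*, *S100a9* and *Ly6g* had fitted log2 differences of 2.16, 2.04 and 0.09, with an adjusted p of 0.132, 0.195 and 0.731 in limma. *Ucp1* and *Elovl3* were each read by 1 probe, and of the 8 brown adipocyte genes detected, *Cox7a1*, *Cpt1b* and *Ppargc1a* are also known from skeletal muscle. The tissue is called BAT here by its label. The part of these cells in the signals below was not tested.

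Most position-named probes were detected on none or on all of the arrays. Of the 4449, 1339 were well above background on no array and 1832 (41.2%) on all 8. On exactly 1, 2 and 3 arrays there were 458, 189 and 122, and on exactly 4, 5, 6 and 7 there were 139, 134, 120 and 116. Among the other 52156 probes, 60.4% were kept and 52.5% were well above background on all 8 arrays. No position-named probe was saturated on any array.

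Just inside the limit of 4 arrays, chr12:16833551-16901804_R, with a probe for *E2f6* inside on the opposite strand, had log2 signals of 5.45, 5.95, 5.14 and 5.17 in Co mice and 4.62, 4.31, 4.81 and 4.32 in Pg mice. All 4 Co arrays and no Pg array carried its mark. The same held for chr17:36136010-36136696_F, at 5.24 to 5.46 in Co mice and 4.16 to 4.90 in Pg mice. Both were among the probes called lower in Pg mice below, and both entered that test through their Co signals alone. Just outside, chrX:18734106-18744367_R was marked on 3 Co arrays (3.79 to 5.30, against 4.14 to 4.98 in Pg mice), and chr18:38836368-38935650_F was marked on 1 Co and 2 Pg arrays. Its Pg values were 2.46, 8.37, 4.49 and 6.02. These were the brightest on exactly 4 and exactly 3 arrays.

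Fewer position-named probes were detected in Pg mice. On the Co arrays, 2531, 2463, 2474 and 2563 of the 4449 were well above background. On the Pg arrays the numbers were 2096, 2134, 2019 and 2336. The groups did not overlap, with means of 2508 ± 47.4 and 2146 ± 135 (SD, n = 4 each). The same marks chose the probes kept, so that these numbers are given as a description, with no test. As shares, this was 56.4% ± 1.06 in Co mice and 48.2% ± 3.04 in Pg mice. The other probes went the same way, from 62.9% ± 0.777 to 57.8% ± 2.18. In bulk tissue, fewer cells of a type and less RNA per cell cannot be told apart. The signal level at which the mark was given also differed between the groups (below).

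The position-named share of all probes detected was also lower in Pg mice, at 6.49% to 6.86% against 7.03% to 7.15% in Co mice. The spread of the negative control spots that the scanner software gives for each array moved with the group. In Co mice it was 8.1 to 9.75, and in Pg mice 11.6 to 18.7, in units of intensity. All 8 arrays shared 1 slide and 1 scan. Row 1 of the slide held the Co mice and row 2 the Pg mice, so that row and group cannot be told apart. The part of the negative control spread and of the dimmest marked signal in the detection counts was not tested.

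**Figure D1:**
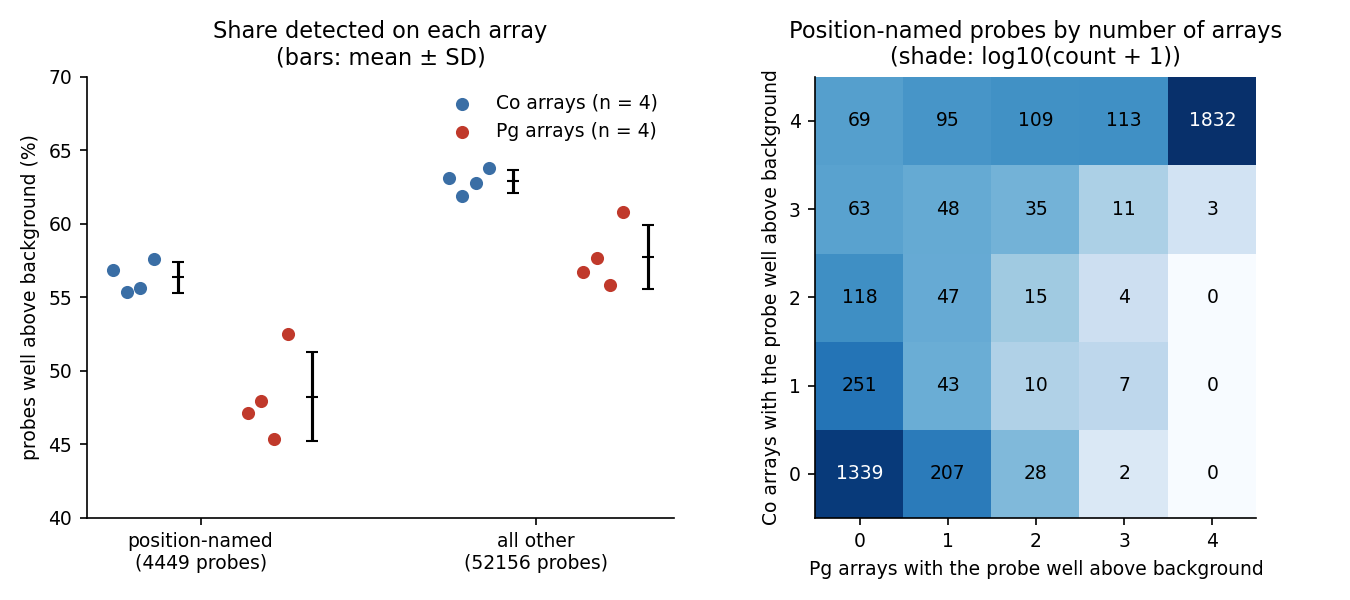
Left, share of position-named probes and of all other probes well above background (y axis, percent) on each of 4 Co and 4 Pg arrays, with the mean ± SD; the y axis runs from 40 to 70. Right, number of the 4449 position-named probes by the number of Pg arrays (x axis) and Co arrays (y axis) on which each was well above background, where 69 probes were detected on all 4 Co arrays and no Pg array and 0 the other way round.

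Among the probes kept, 1832 were detected on all 8 arrays and 509 were not. Of the 509, 469 were detected on more Co than Pg arrays, 14 on more Pg than Co arrays and 26 on as many. The other probes leaned the same way, with 3801 of 4088 on more Co arrays, 85 on more Pg arrays and 202 on as many. In all, 69 position-named probes were detected on all 4 Co arrays and no Pg array, and none were detected on all 4 Pg arrays and no Co array. Among the other probes, these numbers were 460 and 5. The limit of 4 arrays thus lets in probes through the Co arrays alone.

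Strand, chromosome, region length and base composition of the position-named probes went with detection to different degrees. The F and R strands had nearly the same share kept, 1138 of 2227 (51.1%) and 1203 of 2222 (54.1%). By chromosome, the share kept ran from 40.8% on X (71 of 174) and 44.4% on chromosome 13 (116 of 261) to 61.5% on chromosome 2 (171 of 278) and 61.8% on chromosome 14 (115 of 186). Of the probes in regions of up to 1000 bases, 42.2% were kept, and of those in regions over 50000 bases, 60.6%. With a gene-named probe inside on the same strand, 59.2% (343 of 579) were kept, against 51.6% (1998 of 3870) without.

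The widest range went with the GC content of the probe. Of the position-named probes with up to 30% GC, 26.0% (19 of 73) were kept, rising to 39.4%, 50.6% and 71.3% in the steps up to 60%. Between 60% and 70% GC, 69 of 76 (90.8%) were kept, and above 70% GC, 43 of 47 (91.5%). The other probes had the same order, from 30.9% to 82.8%. The probe is the same on every array, so GC content does not differ between Co and Pg mice. One array did stand apart by it. On the Co1 array, the signals of kept position-named probes with over 70% GC lay at a median of 0.31 (log2) above their mean over the arrays, and on Co4 and Pg4 at −0.15 and −0.17.

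**Figure D2:**
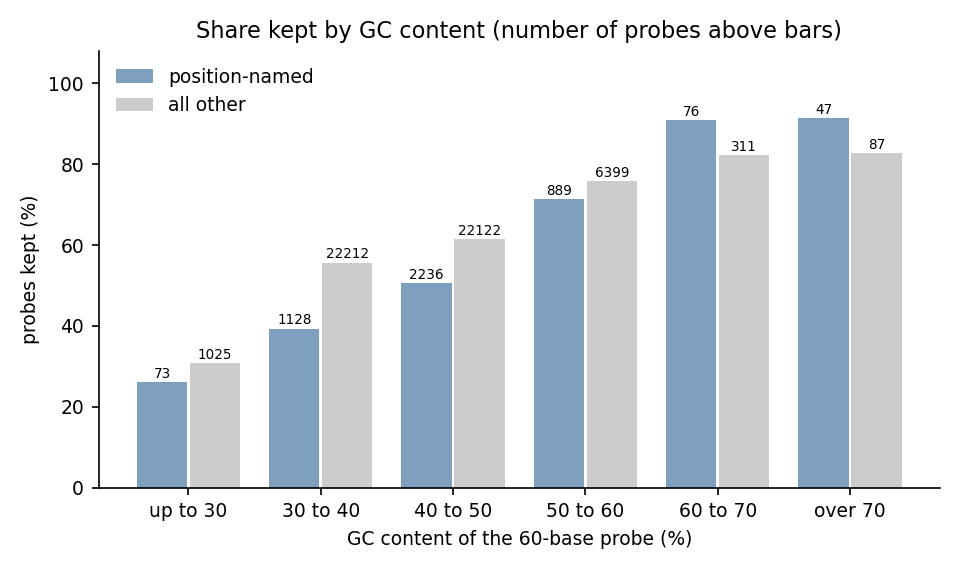
Share of probes kept (y axis, percent) by the GC content of the 60-base probe (x axis, percent), for the position-named probes and for all other probes, with the number of probes above each bar. The share of position-named probes kept went from 26.0% at up to 30% GC to 91.5% above 70% GC.

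The regions with probes on both strands show how far the strands were read apart. Of the 832, both strands were kept in 320, only F in 156, only R in 192 and neither in 164. In 76 pairs the F and R probes shared at least 50 bases, so that they read opposite strands of the same place. Of these pairs, both were kept in 18 and only 1 of the strands in 30 (16 F and 14 R). In 10 pairs, 1 strand was well above background on all 8 arrays and the other on none. The chromosome 19 pair printed above is 1 of these. Its R probe had log2 signals of 5.75 to 6.4 in Co mice and 5.75 to 6.29 in Pg mice, and its F probe 2.00 to 2.08 and 2.04 to 2.07. The signals of different probes are not on 1 scale, but no array had the F probe well above background. In the pair chr4:53312709-53355184, which shares 59 bases, it was the F probe that was well above background on all 8 arrays (5.16 to 6.24) and the R probe on none (1.95 to 2.10).

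The signal of the position-named probes kept had a median of 6.48 on the log2 scale (interquartile range 5.30 to 8.22), against 8.07 for all probes kept. A probe's signal depends on its sequence as well as on its target, so that the order of probes by signal is not an order of abundance. The 6 brightest lay between 16.74 and 17.96 on every array. Among them, chr4:141527564-141547339_F had 17.13, 17.29, 17.35 and 17.34 in Co mice and 17.20, 17.07, 17.17 and 17.16 in Pg mice. Its region holds a probe for *Fhad1os1*, a noncoding RNA on the same strand, and that probe was well above background on no array.

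Some bright probes share part of their sequence with a promoter window or with another probe of the array. The chr14:78924115-78938125_F probe, which has 58 bases of the *Akap11* promoter window on the opposite strand and 83.3% GC, had 17.96, 17.10, 16.95 and 16.96 in Co mice and 17.32, 17.23, 16.98 and 16.91 in Pg mice. *Akap11* encodes an anchoring protein for protein kinase A. The Co1 value stands above the other 7, as for the high-GC probes as a whole. Of the 2 others printed above, chr2:168804720-168854970_R had 16.85 to 16.92 in Co mice and 16.89 to 16.98 in Pg mice, and chr4:33364774-33364898_R had 16.80 to 16.96 and 16.79 to 17.05. The brightest 6 also held chr17:17481706-17482457_R (16.92 to 17.02 and 16.87 to 16.90) and chr12:73838608-73862621_R (16.78 to 17.28 and 16.74 to 16.99). None of the 6 passed the test between Co and Pg mice, with fitted log2 differences from −0.14 to 0.05.

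Over all 4449, a probe with at least 50 bases identical to a gene-named probe was rare, with 11 on the same strand and 21 on the opposite strand. With a promoter window of RefSeq (250 bases before to 50 after the start, 32851 windows), it was 38 and 47. With a miRNA hairpin it was 1 and 0. None of these probes was called in the comparison that follows.

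Between Co and Pg mice, 7 position-named probes were upregulated and 35 downregulated in Pg mice, 42 of 2341 (1.79%). A call needed a q under 0.1 in limma and a fold change above 1.5. The share over all 33819 probes kept was 1.61%, with 0.313% upregulated and 1.30% downregulated, against 0.299% and 1.5% of the position-named probes. The position-named share thus lay near that of all probes. Among probes with a mean signal in the interquartile range of the position-named ones, 1.80% were called over all probes and 13 of 1171 (1.11%) of the position-named. Among those detected on all 8 arrays, 0.907% were called over all probes and 16 of 1832 (0.873%) of the position-named. With no fold limit, 144 position-named probes had a q under 0.1, 32 upregulated and 112 downregulated, against 7.82% over all probes. The groups did not overlap in 270 of the 2341, against 15.8% over all probes.

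These counts moved with single arrays and with the scaling. With a block for the replicate number, no position-named probe and no other probe was called (see the last section). Leaving out 1 array at a time gave 0 to 10 upregulated and 0 to 36 downregulated. Without Co3 limma called none (410 had an unadjusted p under 0.05, against 428 with all arrays), without Co2 2 and 3, without Pg1 3 and 11, without Pg2 5 and 7, without Co4 5 and 12, without Pg4 7 and 11, and without Co1 10 and 20. Over all probes there were 106 and 440 calls with all arrays, 1 and 2 without Co3, and 30 and 80 without Co2. They were 50 and 191 without Pg1, 61 and 187 without Pg2, and 56 and 165 without Co4. They were 74 and 249 without Pg4, 51 and 255 without Co1, and 182 and 515 without Pg3. Without Co1, upregulated calls rose among the position-named probes and fell over all probes. The balance of higher and lower calls also moved with the scaling. With arrays scaled to the 75th percentile there were 11 upregulated and 10 downregulated, with normexp 2 and 4, with the median signal 3 and 4, with the values tabulated by the authors 3 and 4, and without normalization 1 and 0. Over all probes these numbers were 137 and 146, 66 and 28, 75 and 33, 60 and 46 (of the 28067 probes of that table), and 20 and 7. Limited to probes detected on all 8 arrays there were 7 and 12, limited to probes with a mean above the negative controls 9 and 11, and with no limit 14 and 22, against 107 and 211, 58 and 191, and 82 and 290 over all probes. Only 3 of the 42 were also called by normexp, the median signal and the 75th percentile alike, all chosen after their values were seen: chr18:61781410-61788685_R, chr12:32781477-32808567_R and chr3:10081893-10094218_R. The last was kept through its Co signals alone, and none of the 3 was called without normalization.

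Of the 35 downregulated, 20 were well above background on no Pg array (of the 69 such probes that were kept) and 10 on all 8 arrays, and their median mean signal was 4.77. Of the 7 upregulated, 6 were well above background on all 8 arrays, and their median was 7.29. By strand, 1 F and 6 R probes were upregulated, and 15 F and 20 R probes downregulated. The median log2 fold change over the 2341 kept was −0.05, against −0.04 over all probes kept. Its sign was not stable, since it was 0.0080 with arrays scaled to the 75th percentile (−0.020 over all probes) and 0.058 without normalization (0.030 over all probes).

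**Figure D3:**
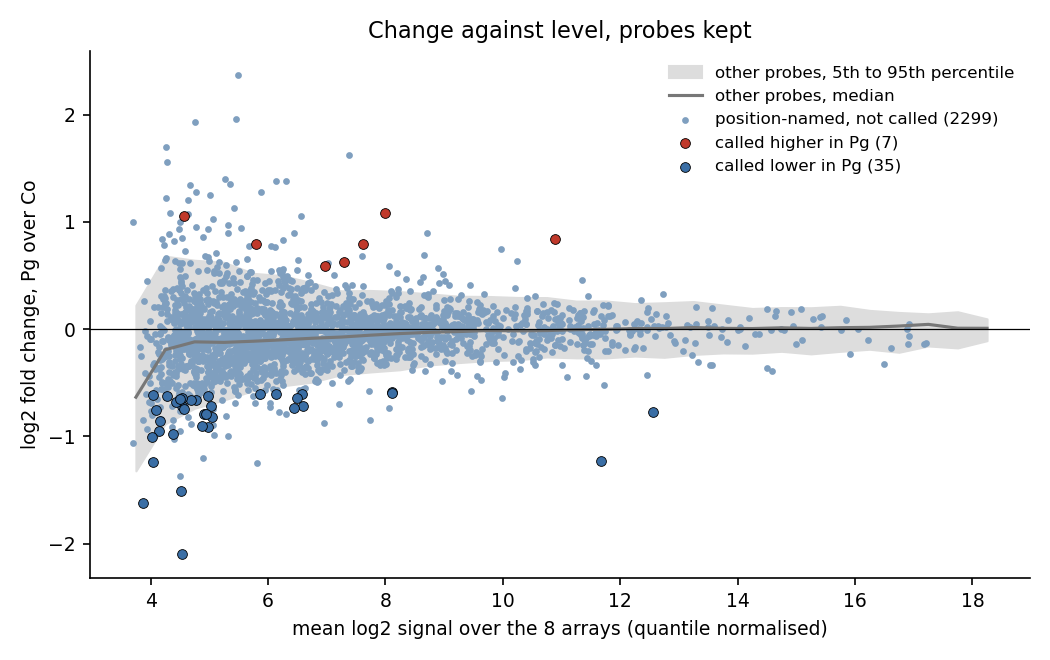
Log2 fold change of Pg over Co mice (y axis) against the mean log2 signal over the 8 arrays (x axis) for the 2341 position-named probes kept, with the 7 called higher and the 35 called lower in Pg mice in colour. The grey band spans the 5th to 95th percentile of the other probes kept, and most probes called lower lie at the dim end, with a median of 4.77.

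On chromosome 17, the region 56687541 to 56694616 was the only one of the 320 kept on both strands in which both strands were called. The R probe (A_30_P01018472) had 7.27, 6.99, 7.20 and 7.44 in Co mice and 8.22, 7.93, 7.88 and 8.06 in Pg mice. All Pg values lay above all Co values, with a log2 fold change of 0.80 ± 0.11 (SE) and an adjusted p of 0.0411 in limma. The F probe (A_30_P01022603) had 5.10, 5.35, 5.57 and 5.57 in Co mice and 6.28, 6.17, 6.03 and 6.27 in Pg mice, again without overlap. Its log2 fold change was 0.79 ± 0.12 with an adjusted p of 0.0414. The call was lost without Co3 for R, and without Co2 or Co3 for F. Both calls were also lost to the fold limit by normexp (0.57 for R and 0.38 for F) and by the median signal (0.57 and 0.37), that of F in the tabulated values (0.47), and that of R without normalization (adjusted p of 0.129). The nearest gene-named probe, 5784 bases away, was for *Safb2*, which encodes a scaffold attachment factor that binds RNA and chromatin. Of its 5 probes, 4 were kept, at log2 fold changes of −0.21, −0.11, 0.03 and 0.00, and none was called.

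On chromosome 12, chr12:32781477-32808567_R (A_30_P01024278) had 10 on Co1, 11 on Co2, 10.52 on Co3 and 10.35 on Co4, and 11.18, 11.21, 11.53 and 11.30 on the Pg arrays. The groups did not overlap, although Co2 came close, and the log2 fold change was 0.84 ± 0.20 with an adjusted p of 0.0717 in limma. The region holds 2 probes for *5430401H09Rik*, a gene named by a cDNA clone, on the same strand. Both were also called higher in Pg mice, with log2 fold changes of 1.40 ± 0.23 (adjusted p of 0.0439) and 1.59 ± 0.29 (adjusted p of 0.0520). The position-named probe kept its call when Co2 was left out, and lost it without any of the other 7 arrays, without normalization (adjusted p of 0.138), and with a mean above the negative controls (0.126) or no limit on dim probes (0.119).

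For the other upregulated probes, the nearest gene-named probe was not called. The chr18:61781410-61788685_R probe (A_30_P01032470) had 7.36, 7.50, 7.66 and 7.30 in Co mice and 8.73, 8.25, 9.01 and 8.17 in Pg mice, a log2 fold change of 1.09 ± 0.19 with an adjusted p of 0.0507 in limma. Its call was lost without Co2, Co3, Co4 or Pg1, without normalization, and to the fold limit in the tabulated values (0.50). A further probe of the same region and strand had 7.12 to 7.31 in Co mice and 7.25 to 7.54 in Pg mice, and its groups overlapped (0.15 ± 0.09, adjusted p of 0.350). The nearest gene-named probe, 16842 bases away, was for *Mir143hg*, the host transcript of miR-143, at a log2 fold change of 0.04. The chr13:108653722-108654406_R probe (A_30_P01017920) lay between 6.90 and 7.15 in Co mice and between 7.40 and 7.73 in Pg mice, at 0.62 ± 0.09 with an adjusted p of 0.0411, and lost its call without Co2, Co3 or Pg4, without normalization, and to the fold limit by normexp (0.41), by the median signal (0.42) and in the tabulated values (0.47).

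The probe chr17:32076069-32076590_R (A_30_P01023912) had 6.98, 6.57, 6.58 and 6.54 in Co mice and 7.31, 7.34, 7.40 and 6.99 in Pg mice, at 0.59 ± 0.13 with an adjusted p of 0.0649. Co1 and Pg4 all but met, and the change was just above the fold limit. Of the fits with 1 array left out, it was called in those without Co1 or Pg4. It was not called by normexp (0.43), by the median signal (0.52), in the tabulated values (0.56), without normalization, with a mean above the negative controls (adjusted p of 0.117) or with no limit on dim probes (0.105). The last, chr2:27628702-27628903_R (A_30_P01020106), was dim. It lay between 3.89 and 4.26 in Co mice, where 1 array was well above background, and between 4.61 and 5.64 in Pg mice, where 3 were (1.05 ± 0.22, adjusted p of 0.0609). Its call was lost without any 1 of the Co arrays and without Pg1, by normexp (0.35), by the median signal (0.33), in the tabulated values (0.48), without normalization, and with a mean above the negative controls or no limit on dim probes (adjusted p of 0.110 and 0.102). Its nearest gene-named probe was for *Rxra*, a nuclear receptor, 10298 bases away on the opposite strand. The 2 *Rxra* probes had log2 fold changes of −0.14 and 0.13, and neither was called.

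Of the 8 lowest fold changes among the downregulated, 7 were of probes that no Pg array had well above background. Only an approximate bound can be given for them. The bound sets the Co mean against the Pg mean of, on each array, the dimmest signal of any probe well above background or the probe's own signal, whichever was higher. That dimmest signal is not a strict limit. On Pg3 it was 4.72, while chrX:18734106-18744367_R had 4.98 there without the mark. A true fold change can therefore lie below its bound, and bounds close to 1 do not establish a difference. These probes entered the test through their Co signals alone, so that their adjusted p is no support of its own. The lowest, chr3:10081893-10094218_R (A_30_P01029947), had 6.51, 5.84, 5.43 and 4.58 in Co mice and 3.75, 3.34, 4.01 and 2.88 in Pg mice. By its bound it was 2.17-fold higher in Co mice, with an adjusted p of 0.0573 in limma. The call was lost without Co2, Co3, Pg1, Pg2 or Pg4, without normalization, and with the limit on a mean above the negative controls. The Co values spread over almost 2 log2 units and none met the Pg values. The F probe of the same region was marked on 3 Co arrays and 1 Pg array, at 3.36 to 4.21 and 3.58 to 4.37, and was not called (adjusted p of 0.893).

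The other 6 had lower bounds. The chr4:44197185-44197997_R probe (A_30_P01017454) had 4.95, 6.08, 5.45 and 4.58 in Co mice and 3.4, 3.4, 4.15 and 4.09 in Pg mice. By its bound it was 1.72-fold higher in Co mice (adjusted p of 0.0683 in limma). With 1 array left out it was called in the fits without Co4 or Pg3. It was not called by normexp, by the median signal, without normalization, in the tabulated values, with a mean above the negative controls or with no limit on dim probes. For chr4:119405156-119461821_R (A_30_P01025036) the bound was 1.32-fold, with 4.58 to 5.25 in Co mice and 3.65 to 4.34 in Pg mice. For chr2:104640443-104659168_R (A_30_P01031581), chr13:54399275-54445825_R (A_30_P01018933), chr12:45415565-45423519_F (A_30_P01028098) and chr8:105742425-105852975_F (A_30_P01028815) the bounds were 1.16-fold, 1.14-fold, 1.1-fold and 1.04-fold. With 1 array left out, chr4:119405156-119461821_R and chr13:54399275-54445825_R were each called in 2 of the 8 fits. In such fits chr2:104640443-104659168_R was called in 3, chr12:45415565-45423519_F in 4 and chr8:105742425-105852975_F in 0. None of them was called by normexp, by the median signal or without normalization.

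The chr12:45415565-45423519_F name had 3 further probes, each well above background on all 8 arrays. One had 7.14 to 7.54 in Co mice and 6.72 to 6.90 in Pg mice, a log2 fold change of −0.50 ± 0.11 with an adjusted p of 0.0630 in limma, and the next had 5.94 to 6.24 and 5.58 to 5.81, at −0.40 ± 0.08 with an adjusted p of 0.0616. Both had a q under 0.1 and missed the fold limit, and with any array but Pg3 left out their q was above 0.1. The other had 5.59 to 5.90 in Co mice, and 8.56, 5.05, 5.55 and 5.14 in Pg mice, where Pg1 stood alone (0.37 ± 0.73, adjusted p of 0.798). Without Pg1 its log2 fold change was −0.46 (adjusted p of 0.157), in the direction of the others. *Pnpla8*, a phospholipase gene with a probe 2516 bases away, had log2 fold changes of −0.10 and −0.16 and was not called.

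Among the 8 lowest, 1 was bright. The chr11:95573399-95587949_F probe (A_30_P01019455) had 13.25, 12.06, 11.84 and 12.00 in Co mice and 11.32, 11.41, 10.85 and 10.63 in Pg mice. The groups did not overlap, and the log2 fold change was −1.23 ± 0.33 with an adjusted p of 0.0903 in limma. Its GC content was 73.3%, and Co1, the array that read high for such probes, was its highest. Without Co1 it kept its call, and without any of the other 7 arrays it lost it, as it did with the 75th percentile (adjusted p of 0.106), without normalization (0.202), and with a mean above the negative controls (0.150) or no limit on dim probes (0.147). Its region holds *B130006D01Rik* on the same strand, 1 probe of which was well above background on all 4 Co arrays and no Pg array, too dim for a bound above 1. Its other probe had a log2 fold change of −0.31 ± 0.11 with an adjusted p of 0.146.

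**Figure D4:**
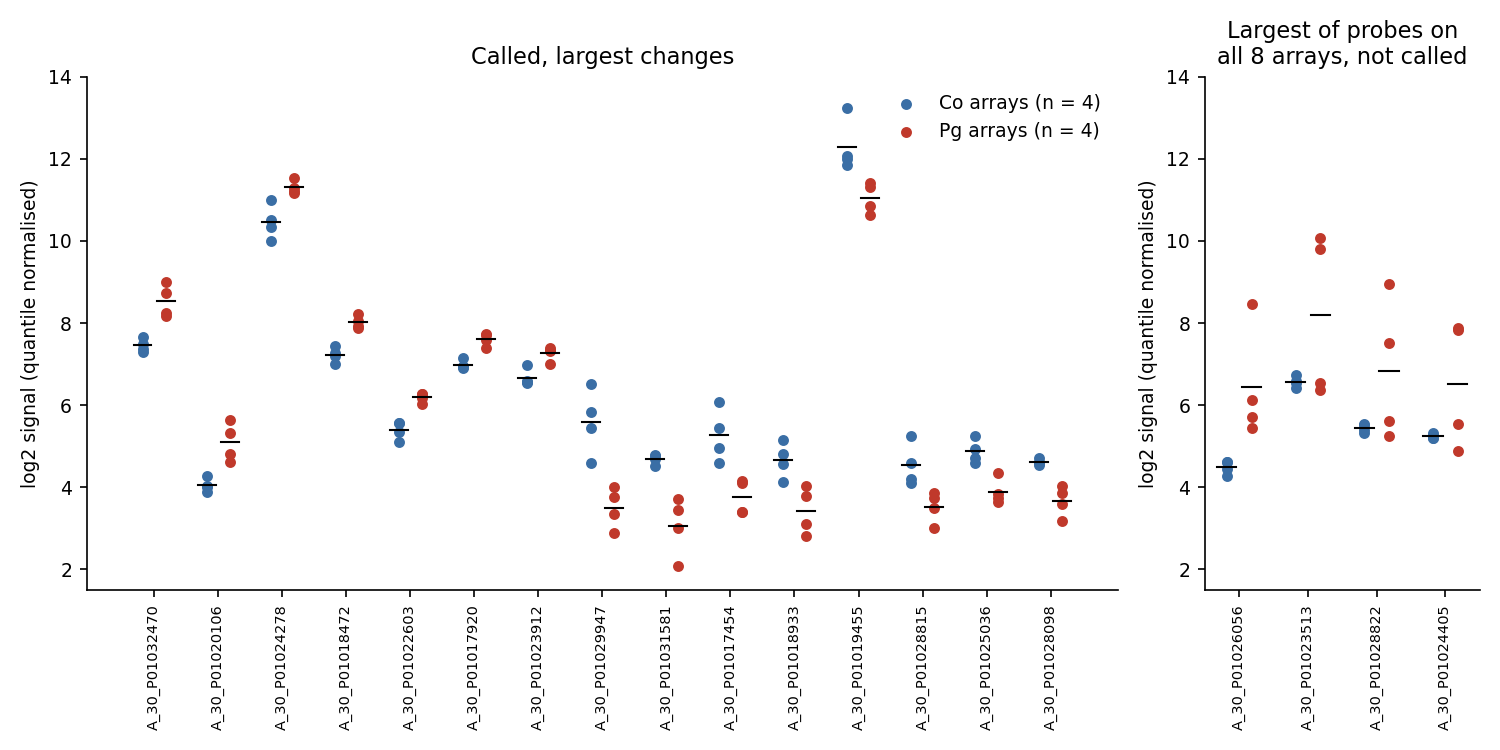
Log2 signal (y axis, quantile normalised) on each of 4 Co and 4 Pg arrays for named position-named probes, by probe number (x axis), with a line at the mean of each group. Left, the 7 upregulated probes and the 8 downregulated ones with the lowest fold changes, whose groups do not overlap; right, the 4 largest fitted changes among probes detected on all 8 arrays that were not called, where single Pg arrays stand far from the rest.

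Among the probes detected on all 8 arrays and not called, the 4 with the largest changes had 1 or 2 Pg arrays far above the others. The chr11:117835849-117842574_R probe (A_30_P01026056) had 4.26, 4.61, 4.44 and 4.62 in Co mice and 6.13, 5.71, 5.45 and 8.47 in Pg mice. All Pg values lay above all Co values, but Pg4 was far above the others, and the fitted log2 fold change of 1.96 ± 0.61 had an adjusted p of 0.121 in limma. Without Pg4 it was 1.28 and called, with an adjusted p of 0.0809, and it was also called when the test was limited to probes on all 8 arrays (adjusted p of 0.0991). The nearest gene-named probe, 8310 bases away on the same strand, was for *Socs3*, a feedback inhibitor of cytokine signaling, at a log2 fold change of 0.21 ± 0.30 (adjusted p of 0.712).

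In the other 3, 2 of the 4 Pg arrays were high. For chr5:113920850-113950200_R (A_30_P01023513), which has a *Wscd2* probe inside on the opposite strand, they were Pg2 and Pg4, at 9.80 and 10.08 against 6.37 and 6.55 on Pg1 and Pg3 and 6.41 to 6.74 in Co mice. For chr8:72663625-72673010_R (A_30_P01024405) they were Pg2 and Pg3, at 7.82 and 7.88 against 4.87 and 5.53, while Co mice lay between 5.20 and 5.31. It shares 51 of 52 bases with the opposite strand of the array's probe for *2310045N01Rik*. For chr18:36470130-36489110_F (A_30_P01028822) they were also Pg2 and Pg3, at 7.52 and 8.95 against 5.24 and 5.61, while Co mice lay between 5.31 and 5.55. The adjusted p in limma was 0.314, 0.306 and 0.318. Over the 1832 position-named probes detected on all 8 arrays, the SD was above 1 for 9 probes in Co mice (0.491%) and for 21 in Pg mice (1.15%). Over all probes of that kind the shares were 0.181% and 0.999%.

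The log2 fold changes of probes of 1 region had little correlation. Most fold changes were small, with an interquartile range of −0.20 to 0.11 over the position-named probes kept. Only 9 of the regions kept on both strands had a call on either strand. A low correlation therefore cannot show whether transcripts of 1 region moved together. Over the 320 regions kept on both strands, the log2 fold changes of F and R had a correlation of r = 0.05 across regions, and 164 pairs had the same sign. Over the 121 names with exactly 2 probes kept, r was 0.07, and 68 had the same sign. Against the gene-named probes inside their region, r was 0.29 over 232 position-named probes on the same strand (140 of the same sign) and −0.06 over 247 on the opposite strand (121 of the same sign). All these points come from the same 8 arrays and share their errors, and regions are not replicates, so that the values are a description.

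**Figure D5:**
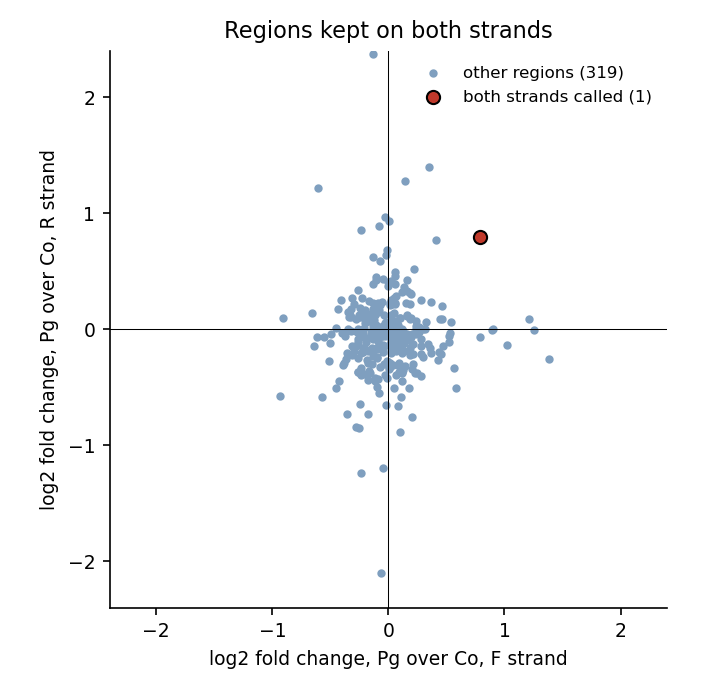
Log2 fold change of Pg over Co mice on the F strand (x axis) against the R strand (y axis) for the 320 regions kept on both strands, 1 point per region (the mean where a strand had several probes). The points spread around 0 without a visible slope (r = 0.05), and the 1 region called on both strands lies at 0.79 and 0.80.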

How the data were processed

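The authors deposited the Feature Extraction 11.0.1.1 output of 8 one-color (Cy3) arrays, 1 per mouse, with the spot intensity before any normalization between arrays. They also deposited a table of log2 values that, by their methods, were quantile-normalized, used here only as an alternative. Its fold changes, p-values, q-values and other comparison columns were not used. For the values here, the background-subtracted intensity was averaged per probe, leaving out spots marked as outliers, quantile normalised, set to a floor of 1 and log2-transformed. Spots named by position were taken from the 59305 non-control spots (4494 spots). The probes kept were compared with limma 3.58.1 in R 4.3.3, two-sided, with Benjamini-Hochberg adjustment over all 33819, and called by the limits of the methods (q under 0.1, fold change above 1.5). A planned exact permutation test of the probes detected per array is not reported, since those marks also chose the probes kept. Sequences were compared with BLAST 2.17.0. The probes, gene lists and naming rule were chosen with earlier results of these data known. The rule named the called probes without overlap with the 8 highest and 8 lowest fold changes, the 6 brightest and the 4 largest changes not called among probes on all 8 arrays, opposite-strand probes, and 2 probes each on exactly 4 and 3 arrays. Others with values, such as further probes of a named region, were chosen after seeing them. The fit was tested on simulated data. Precision is limited by the number of arrays, and p-values measure the spread between mice of 1 slide.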

Additional observations from a re-analysis of the deposited data

Results flagged for a closer look

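Of 72 groups of 4 arrays (35 named probes in Co and in Pg mice, and the 2 detection counts), 6 had 1 array far from the other 3. Chance marks about 1 in 20 groups when they are not picked by their values. Most of these probes were picked by their values and share arrays, so that rate does not apply here. In Co mice, Co1 was the highest for chr17:32076069-32076590_R (6.98, the others 6.54 to 6.58), chr11:95573399-95587949_F (13.25, the others 11.84 to 12.06) and chr14:78924115-78938125_F (17.96, the others 16.95 to 17.10). Co1 was the lowest for chr3:10081893-10094218_F (3.36, the others 4.16 to 4.21). Co4 was the highest for chr17:17481706-17482457_R (17.02, the others 16.92 to 16.93). In Pg mice, Pg1 was the highest for the chr12:45415565-45423519_F probe A_30_P01026419 (8.56, the others 5.05 to 5.55). No other Pg group and neither detection count had such an array.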

How the results depend on the processing

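The counts of position-named probes called in Pg mice, 7 higher and 35 lower, changed by over 1.5 times under most alternatives. They were 2 and 4 by normexp on the mean signal, 3 and 4 by the median signal (no background subtracted), 11 and 10 when arrays were scaled to the 75th percentile, 1 and 0 unnormalised, and 3 and 4 in the values tabulated by the authors. Limited to probes on all 8 arrays, 12 were lower, limited to a mean above the negative controls 11, and with no limit on dim probes 14 were higher and 22 lower. At q under 0.1 with no fold limit they were 32 and 112. A floor of 16, outlier spots kept, and trend and robust estimation left both counts within 1.5 times. With an array left out, 0 to 10 were higher and 0 to 36 lower. With the replicate block, limma called 0 higher and 0 lower (483 had an unadjusted p under 0.05). Same-numbered arrays had correlations of 0.06, −0.03, −0.07 and 0.18, so the numbers were not taken to pair the mice, although they follow the columns of the slide. The median log2 fold change of −0.05 became 0.0080 with the 75th percentile and 0.058 without normalization, and lay between −0.06 and −0.03 with an array left out. The difference in probes detected, −361.5 per array (Pg minus Co), was −324 by the software's other detection mark and −424.8 to −319.1 with an array left out. Of the probes named, the sign turned only in ones not called. The fold change of chr2:168804720-168854970_R was −0.056 with the 75th percentile and −0.0062 without normalization, that of chr3:10081893-10094218_F 0.048 and 0.098, and that of chr4:33364774-33364898_R −0.092 and −0.042. The latter was −0.018 by normexp, −0.016 by the median signal and −0.025 in the tabulated values. With an array left out, chr14:78924115-78938125_F ran from −0.23 to 0.10 (without Co1), chr3:10081893-10094218_F from −0.27 to 0.047, chr4:33364774-33364898_R from −0.049 to 0.037 and the chr12:45415565-45423519_F probe A_30_P01026419 from −0.46 (without Pg1) to 0.71. The last was −0.11 in the tabulated values. The cause was not tested. For called probes among the lowest fold changes that no Pg array had well above background, approximate bounds were given in place of fold changes.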
